A study of Mus musculus with 22 samples.

Results

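Oncofetal genes are active in the embryo, fall silent in most adult tissues and return in many tumors. This report describes 10 of them, Igf2bp1, Igf2bp2, Igf2bp3, Lin28a, Lin28b, Hmga1, Hmga2, H19, Igf2 and Peg10, among the 46882 genes of a mouse expression table. The set was chosen by measured values of these libraries: Igf2bp3 is high in cultured MC38 cells and absent from the first of the 2 skin libraries. The contrast between MC38 cells and skin is therefore given as a description with no test.

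MC38 is a transplantable mouse colon carcinoma line of C57BL/6 origin. It was injected under the skin of C57BL/6N wild-type mice and of mice labelled RAG1-/- (strain B6.129S7-Rag1tm1Mom/J), which lack mature T and B cells, all 8 to 12 weeks old. RNA came from a piece of each excised tumor, a mixture of cancer cells and host cells: 3 wild-type tumors of day 23, 3 wild-type tumors of day 46, 3 RAG1-/- tumors of day 13 and 3 RAG1-/- tumors of day 23. Also measured were 2 libraries of MC38 cells (day 0) and 2 of normal skin from wild-type mice (day 23). Host genotype and strain background cannot be told apart, and the wild-type groups are later than the RAG1-/- groups except on day 23.

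The libraries count the 3′ ends of transcripts, so a value does not grow with transcript length. Values are normalized counts, that is, reads per gene divided by 1 factor per library. Libraries held 5589151 to 26134241 reads on genes, and 3 reads, taken as the floor of detection, were worth 1.33 to 6.38 normalized counts. In MC38 cells 6 markers of simple epithelium, Epcam and Cdh1 among them, summed to 4.28 and 5.87 normalized counts, so the colon origin did not show in them. Rag1 itself carried 23 reads over the tumors labelled RAG1-/- and 1 read over the wild-type tumors. Whether the counted end lies in the part that this allele removes is not given in the sources used here, so Rag1 does not check the labels. T cell markers (Cd3e, Cd3d, Cd8a, Cd2) summed to 11.7 to 153 normalized counts in wild-type tumors and 0 to 4.86 in RAG1-/- tumors. The second skin library stood apart: of 70 genes with at least 100 normalized counts in MC38 cells and at most 3 reads in the first skin library, 44 reached at least 10 in the second. In the opposite direction it was 2 of 21 genes. Each skin library is therefore given by itself.

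The genes form connected families. Lin28a and Lin28b encode RNA-binding proteins that block the maturation of let-7, a family of microRNAs that accumulates as tissues differentiate. Igf2bp1, Igf2bp2 and Igf2bp3 encode proteins that bind, localize and stabilize mRNAs, Igf2 mRNA among them. Hmga1 and Hmga2 encode small chromatin proteins that bind AT-rich DNA, and Hmga2 mRNA is a classical target of let-7. Igf2 encodes a fetal growth factor expressed from the paternal allele, H19 is a long non-coding RNA expressed from the maternal allele beside it, and Peg10 is a paternally expressed gene derived from a retrotransposon that the placenta needs.

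The let-7 sequences are shown because 7 of the 10 genes share a match to them. Of 10 mature let-7 miRNAs in RefSeq, 9 carry the same seed (bases 2 to 8, in capitals), and let-7j differs in it.
let-7a-5p: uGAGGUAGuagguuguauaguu
let-7g-5p: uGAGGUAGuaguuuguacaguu
let-7j: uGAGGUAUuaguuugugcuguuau
The complement of the shared seed, CTACCTC, was searched on the transcript strand of the longest annotated 3′ UTR of each gene (GENCODE M21, GRCm38). It occurred 4 times each in Igf2bp1, Lin28b and Hmga2, 2 times in Lin28a and once each in Igf2bp2, Igf2bp3 and Hmga1. No match lay in the 3′ UTRs of Igf2 and Peg10 or in the 7 annotated transcripts of H19. Among all 21022 genes with a 3′ UTR 9.02% held a match, and 20% of the 5375 genes whose 3′ UTR has at least 2000 bases did. With an A after the match, the form of 8 bases, 6 of the 9 genes with a 3′ UTR kept a site. Among all genes it was 3.06%, and 7.07% among those whose 3′ UTR has at least 2000 bases. The sites of Hmga2, of the 2 IGF2BP genes with the highest levels here and the first site of Lin28b are shown in 30 bases each, with the match in capitals.
Hmga2, chr10:120364213-120364242, minus strand: acattcaatttCTACCTCagcatcagttgg
Hmga2, chr10:120362976-120363005, minus strand: actcctcaataCTACCTCtgaatgctacag
Hmga2, chr10:120362538-120362567, minus strand: tttgcaaggaaCTACCTCcacacttccaaa
Hmga2, chr10:120361680-120361709, minus strand: aaaacacactaCTACCTCttaagtcccagt
Igf2bp3, chr6:49086776-49086805, minus strand: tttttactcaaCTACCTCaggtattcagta
Igf2bp2, chr16:22059462-22059491, minus strand: acaaataaaagCTACCTCaggtgtttttta
Lin28b, chr10:45381011-45381040, minus strand: gggcgggaagtCTACCTCatgcaagcacag
A match is a description of letters and not a measured site, and mature let-7 was not measured by these libraries.

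**Figure D1:**
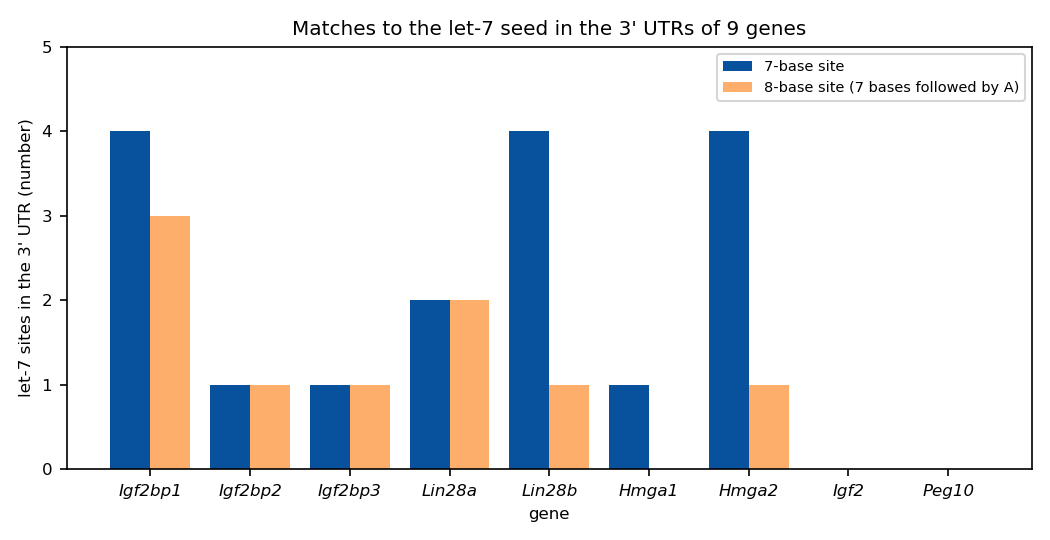
Bars give the number of matches to the let-7 seed in the longest 3′ UTR of the 9 genes that have one, for the site of 7 bases and for the site of 8 bases. Igf2bp1, Lin28b and Hmga2 have 4 matches each, and Igf2 and Peg10 have 0.

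In MC38 cells Igf2bp3, Hmga2 and Igf2bp2 stood above both skin libraries, and H19, Igf2 and Peg10 stood below both. Igf2bp3 was at 645 normalized counts in both MC38 libraries, at 0 in the first skin library and at 45.9 in the second. Hmga2 was at 2539 and 2689 in MC38 cells and at 13.4 and 1063 in skin. The second skin library thus held Hmga2 at 0.407 of the MC38 mean and Igf2bp3 at 0.0711 of it. Igf2bp2 was at 796 and 668 in MC38 cells and at 81.7 and 167 in skin. Igf2bp1 was low but present in MC38 cells, at 29.9 and 28.4 (35 and 29 reads), against 2.68 and 0 in skin.

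Hmga1 was at 53.9 and 22.5 in MC38 cells and at 13.4 and 10.2 in skin. Its reads are uncertain, since 20.4% of its last 500 exonic bases lie opposite to AI413582 and the strand setting of the counting is not given in the sources used here. Lin28b was near the floor in MC38 cells (4.28 and 9.78) and without a read in skin. Lin28a had 1 read in 16 libraries, in the first skin library, and is not discussed further.

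The 3 imprinted genes went the other way. H19 was at 4.28 and 12.7 normalized counts in MC38 cells and at 1350.3 and 1629 in skin. Igf2 had no read in either MC38 library and stood at 30.8 and 40.8 in skin. Peg10 had 3 reads over both MC38 libraries (1.71 and 0.978) and stood at 2.68 and 5.10 in skin, a ratio of 2.89 with a counting interval of 0.611 to 17.7. H19 and Igf2 lie 72622 bases apart on chromosome 7 (GRCm38, H19 at 142575529 to 142578143 and Igf2 at 142650766 to 142666816, both on the minus strand).

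**Figure D2:**
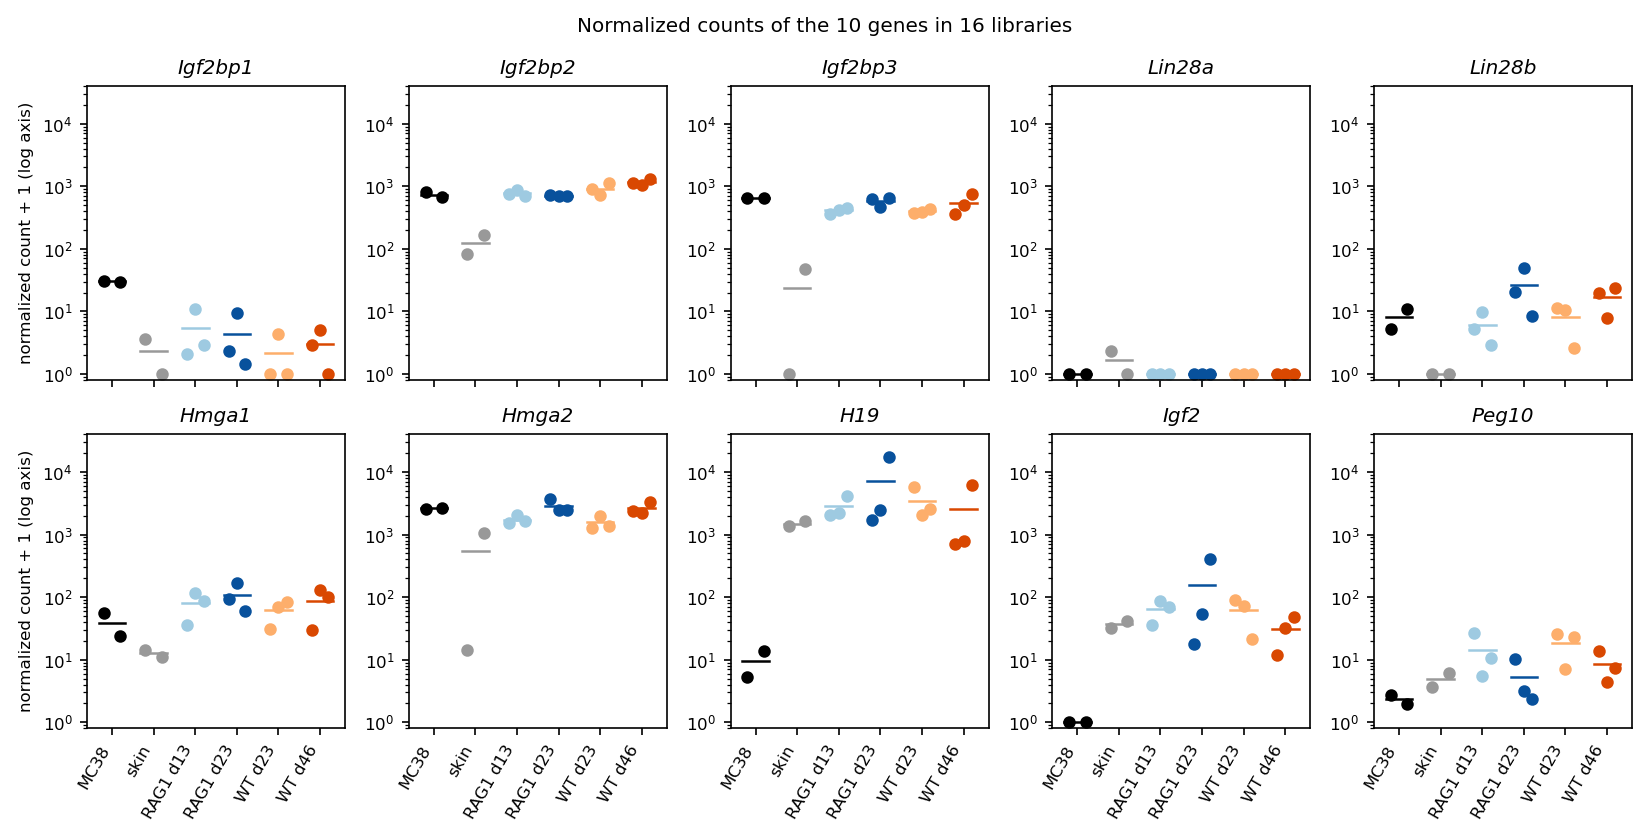
Each panel plots 1 gene, with the normalized count plus 1 on a log axis for the 16 libraries in their 6 groups. Points are libraries and lines are group means. Igf2bp3, Igf2bp2 and Hmga2 lie near their MC38 level in the 12 tumors, while H19 and Igf2 lie far above it.

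Next, the tumors were compared with the cells that had been injected. H19 was called higher in tumors of both hosts. It was at 5839, 2037 and 2523 normalized counts in wild-type tumors of day 23 and at 693, 779 and 6178 in those of day 46. In RAG1-/- tumors it was at 2076, 2189 and 4162 on day 13 and at 1718, 2504 and 17161 on day 23. All 12 tumors lay above both MC38 libraries. The mean was 354-fold the MC38 mean in wild-type tumors (log2 difference 7.99, SE 0.79, limma adjusted p = 3.14e-07) and 585-fold in RAG1-/- tumors (8.62, SE 0.79, limma adjusted p = 1.3e-07). Without the RAG1-/- tumor of day 23 at 17161 the RAG1-/- mean was 298-fold the MC38 mean. Leaving out the first MC38 library gave 7.30 and 7.93 on the log2 scale and leaving out the second gave 8.67 and 9.31. An exact permutation test of 6 tumors against 2 libraries cannot go below 0.0714, which H19 reached for both hosts.

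Igf2 followed H19. It was at 88.5, 71.6 and 20.6 normalized counts in wild-type tumors of day 23 and at 10.8, 31.6 and 46.5 in those of day 46. In RAG1-/- tumors it was at 34.2, 84.5 and 68.6 on day 13 and at 17.0, 53.2 and 401 on day 23. No tumor was without reads and both MC38 libraries were, so wild-type tumors were at least 16.3-fold higher and RAG1-/- tumors at least 39.9-fold higher, set against 3 reads in each MC38 library. Igf2 passed the filter on low values through the tumors alone, so that it had to be higher there, and its level is given as a description. Without the RAG1-/- tumor of day 23 at 401 the second bound was 18.7-fold. Igf2 shares 99.4% of its last 500 exonic bases, on the same strand, with the annotated gene Gm49394, which was not analysed here. Whether reads in this shared end were counted for Igf2 is not given in the sources used here. The Igf2 values, those of MC38 cells among them, may therefore be incomplete.

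Peg10 was at 25.1, 5.97 and 22.2 normalized counts in wild-type tumors of day 23 and at 12.7, 3.36 and 6.28 in those of day 46. It was at 25.7, 4.45 and 9.53 in RAG1-/- tumors of day 13 and at 9.16, 2.13 and 1.33 in those of day 23. Wild-type tumors had 9.37 times the MC38 mean (counting interval 2.76 to 41.3) and RAG1-/- tumors 6.48 times (1.81 to 28.1), and RAG1-/- tumors overlapped the MC38 libraries. Peg10 too passed the filter through the tumors alone, so these values are a description.

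Igf2bp1 was lower in tumors than in cultured cells. It was at 0, 3.41 and 0 normalized counts in wild-type tumors of day 23, at 1.95, 4.03 and 0 on day 46, at 1.07, 10.01 and 1.91 in RAG1-/- tumors of day 13 and at 1.31, 8.51 and 0.442 on day 23. The MC38 mean of 29.1 was 18.6-fold the wild-type mean and 7.52-fold the RAG1-/- mean. All 12 tumors lay below both MC38 libraries. It passed the filter through the MC38 libraries alone, so that it had to be lower in tumors, and no test is drawn on.

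The other RNA-binding and chromatin genes stayed nearer to the injected cells. Igf2bp2 was at 906, 728 and 1114 normalized counts in wild-type tumors of day 23, 1145, 1029 and 1316 on day 46, 756, 858 and 689.7 in RAG1-/- tumors of day 13 and 729, 702 and 699 on day 23. It was 1.42-fold the MC38 mean in wild-type tumors (log2 difference 0.49, SE 0.16, limma adjusted p = 0.0346) and 1.01-fold in RAG1-/- tumors (0.02, SE 0.16, limma adjusted p = 0.96). The wild-type call was lost in 9 of 18 alternatives. Scaling to the same upper quartile gave 0.34 (adjusted p = 0.127), leaving out either MC38 library gave adjusted p of 0.0779 and 0.336, and leaving out the third wild-type tumor of day 23 or of day 46 gave 0.0643 and 0.0513.

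Hmga2, Hmga1 and Lin28b did not pass the test against MC38 in either host. Hmga2 averaged 2103 ± 755 normalized counts (SD, n = 6) in wild-type and 2310.0 ± 808 (SD, n = 6) in RAG1-/- tumors, against 2614 ± 106 (SD, n = 2) in MC38 cells. Lin28b averaged 11.5 ± 7.75 and 15.2 ± 17.6 (SD, n = 6 each) against 7.03 ± 3.89 (SD, n = 2). Hmga1 averaged 72.8 ± 39.2 and 92.1 ± 45.2 (SD, n = 6 each) against 38.2 ± 22.2 (SD, n = 2). Igf2bp3, whose MC38 level chose the set, is given without a test: 466 ± 143 in wild-type and 496 ± 119 in RAG1-/- tumors (SD, n = 6 each), or 0.723 and 0.769 of the MC38 mean.

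**Figure D3:**
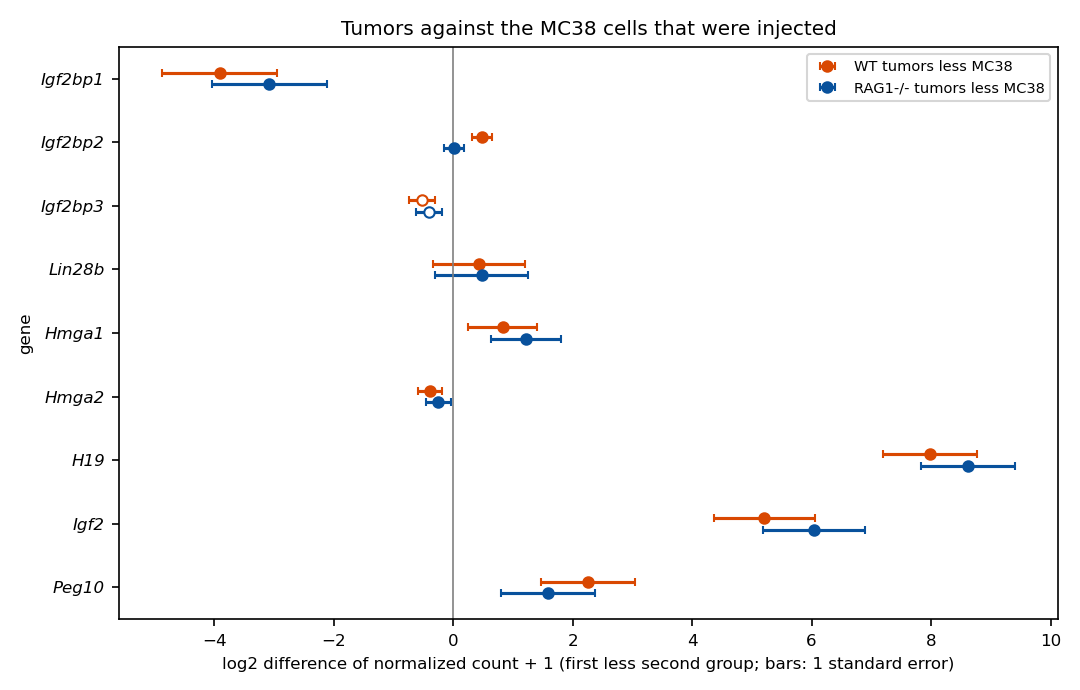
Points are log2 differences of normalized count plus 1 between the tumors of each host and MC38 cells, and bars are 1 standard error. Open points mark Igf2bp3, which was not tested. H19 and Igf2 stand far to the right, Igf2bp1 to the left and the others within 3 log2 units of 0.

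Of the 8 genes tested in this comparison 5 were called in wild-type tumors, where 27.9% of all 14708 genes tested were called, and 3 in RAG1-/- tumors, where 23.3% were. These counts carry little, since Igf2bp1 passed the filter on low values through the MC38 libraries alone and Igf2 and Peg10 through the tumors alone, so that these 3 had to differ whatever their p. Lin28a did not pass it. Both comparisons share the 2 MC38 libraries.

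Markers of several host cell types rose in the same contrast, where 18.3% of all genes were called higher in wild-type and 15.8% in RAG1-/- tumors. The fibroblast list had 6 of 7 genes higher in each host, the macrophage list 5 of 5, the endothelium list 3 of 3 and the smooth muscle and pericyte list 4 of 5 and 3 of 5. Others rose less or in 1 host: skeletal muscle 1 of 5 and adipocyte 1 of 2 in each host, keratinocyte 0 of 4 in each, and T cell 3 of 3 and B cell 1 of 1 in wild-type but 0 of 3 and 0 of 1 in RAG1-/- tumors. A marker without reads in MC38 cells could only be higher, so these counts carry little for such lists. In each MC38 library no read fell on 2 fibroblast, 2 macrophage, 1 endothelium and all 4 T cell markers. The B cell list had 3 and 4 of its 4 markers without a read there. Summed fibroblast markers were at 4955 to 5649 normalized counts in MC38 cells, 13585 to 48912 in tumors and 359425 to 417770 in skin. Summed macrophage markers were at 42.8 to 66.5 in MC38 cells and 9277 to 17028 in tumors. More cells of a type and more RNA per cell cannot be told apart in bulk tumors, and the part of host cells in the rise of H19, Igf2 and Peg10 was not tested.

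Other imprinted genes were measured beside H19 and Igf2. Of 24 on the list 14 could be tested, and 7 were called higher in wild-type and 6 in RAG1-/- tumors. Of these 14, however, 6 had no read in MC38 cells and could only be higher, and among the other 8 the calls were 2 and 1, with none lower. Of all genes tested 18.3% and 15.8% were called higher. The median log2 difference was 1.23 and 0.92 (1.08 and 0.92 with genes absent from MC38 at their bound) beside 0.05 and 0.06 over all genes. Mest, Dlk1, Meg3 and Peg3 had no read in MC38 cells. Mest stood at 29.3 to 155 normalized counts in wild-type and 45.8 to 232 in RAG1-/- tumors, and at 10.2 and 13.4 in skin. Dlk1 stood at 5.90 to 23.5 in wild-type and 23.5 to 84.4 in RAG1-/- tumors. Sgce rose by 1.30 and 0.74 on the log2 scale (limma adjusted p = 0.000102 and 0.0137).

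The genes that receive or buffer IGF signals were measured beside Igf2. Of the 13 tested genes of the IGF axis 6 rose and 1 fell in wild-type tumors, and 5 rose and 1 fell in RAG1-/- tumors. Beside this, 18.3% and 15.8% of all genes were called higher and 9.61% and 7.55% lower. Of the 13, 3 had no read in MC38 cells and could only be higher, and among the other 10 it was 3 higher and 1 lower in each host. Those 10 include Igfbp7, which passed the filter through the tumors alone and so had to be higher too. The gene called lower was Irs1 in wild-type tumors and Igfbp6 in RAG1-/- tumors (-0.60, limma adjusted p = 0.0195). The median log2 difference was 2.07 and 0.81 (2.07 and 0.02 with genes absent from MC38 at their bound), beside 0.05 and 0.06 over all genes. Igfbp3, a secreted IGF-binding protein, had no read in MC38 cells and stood at 540.3 to 2122 normalized counts in wild-type tumors. Igf1 had none either and stood at 15.8 to 417. Igfbp7 stood at 0 and 0.856 in MC38 cells and at 711 to 1881 in wild-type tumors. Irs1, which couples IGF receptors to signaling inside the cell, fell by 1.02 on the log2 scale in wild-type tumors (limma adjusted p = 0.000524). Its log2 difference in RAG1-/- tumors was -0.52 (limma adjusted p = 0.0589), and the hosts did not differ in it past the threshold (-0.50, SE 0.14, limma adjusted p = 0.149). Igf1r, the receptor that carries the growth signal of Igf2, averaged 259 in MC38 cells, 342 in wild-type and 239 in RAG1-/- tumors and was called in neither.

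Of 12 tested genes that make, load, modify or degrade microRNAs or their precursors 4 fell in wild-type and 3 in RAG1-/- tumors. None rose, and 9.61% and 7.55% of all genes were called lower. Zcchc11, Zcchc6 and Dis3l2, which modify or degrade let-7 precursors, were called in neither host. The list median was -0.11 and -0.22 beside 0.05 and 0.06 over all genes. Drosha, which cuts primary microRNA transcripts, fell by 0.82 and 0.96 on the log2 scale (limma adjusted p = 0.00128 and 0.000341). Dicer1 fell by 0.62 in both (limma adjusted p = 0.0204 and 0.0248) and Ago2 by 0.63 and 0.79 (limma adjusted p = 0.00615 and 0.00112). Xpo5 fell by 0.73 in wild-type tumors (limma adjusted p = 0.0127) and had a log2 difference of -0.53 in RAG1-/- tumors (limma adjusted p = 0.0715), and the hosts did not differ in it past the threshold (-0.20, SE 0.15, limma adjusted p = 0.668).

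Of 18 tested let-7 targets outside the set 3 rose and 4 fell in wild-type tumors, with a median of -0.19, and 2 rose and 3 fell in RAG1-/- tumors, with a median of -0.08. In all 7 and 5 of the 18 were called, beside 27.9% and 23.3% of all genes. Tgfbr1 rose by 1.76 and 1.72 and Cdc25a fell by 0.85 and 0.77 on the log2 scale. Of 7 mRNAs known to be bound by IGF2BP proteins only Cd44 was called, higher in both hosts (0.50 and 0.58, limma adjusted p = 0.039 and 0.0217). Among 7 other oncofetal genes tested 4 were higher in each host (Gpc3, Mdk, Ptn and Dlk1, the last also imprinted), beside 18.3% and 15.8% of all genes. Of these 4, 2 (Gpc3 and Dlk1) had no read in MC38 cells and could only be higher. The oncofetal medians were 2.57 and 2.71 (2.44 and 2.71 at the bounds), and Afp fell by 1.59 in wild-type tumors (limma adjusted p = 0.00407). Among 7 other HMG proteins 1 rose and 2 fell in wild-type tumors, and 1 rose and 1 fell in RAG1-/- tumors. Of all genes 27.9% and 23.3% were called in either direction. Hmgb2 rose by 0.75 and 1.00, Hmgn2 fell by 0.64 and 0.50, and the medians of the HMG list were -0.14 and -0.13.

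The tumors were then compared with one another. With limma none of the 8 genes that could be tested was called between any tumor groups, so the values below show where the differences lay and how large they were. Lin28a and Igf2bp1 were below the filter. Hmga2 had the lowest p among them in 4 of the 6 tumor comparisons.

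Hmga2 was higher in later than in earlier tumors of both hosts. It was at 1291, 1996 and 1391 normalized counts in wild-type tumors of day 23 and at 2389.6, 2189 and 3362 on day 46. In RAG1-/- tumors it was at 1504, 2030.3 and 1644 on day 13 and at 3739, 2502 and 2440.0 on day 23. All 6 later tumors lay above all 6 earlier tumors. The later group had 1.70-fold the mean of the earlier in wild-type hosts (log2 difference 0.76, SE 0.22, limma adjusted p = 0.385) and 1.68-fold in RAG1-/- hosts (0.73, SE 0.22, limma adjusted p = 0.246). Each exact two-sided permutation test gave p = 0.1, the smallest that 3 against 3 tumors allow.

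The contrast of later with earlier tumors over both hosts was set after these values were seen. In it Hmga2 differed by 0.75 on the log2 scale (SE 0.15, limma adjusted p = 0.174). DESeq2 on recovered reads gave an adjusted p of 0.00455, and over all 22 alternatives the adjusted p ran from 0.00455 to 0.475, with 1 below 0.05. The exact two-sided permutation test over 6 against 6 tumors gave p = 0.00216, the smallest it can give. Of all 14746 genes tested 0 were called by limma (0%), 1771 had an unadjusted p below 0.05 (12.0%) and 104 had groups that did not overlap (0.705%). The change with time differed between the hosts by 0.04 (SE 0.31, limma adjusted p = 0.984), with 0 of 8 genes and 0% of all genes called for that difference. Host cell markers overlapped between these groups. Summed fibroblast markers were at 15326 to 30073 in earlier and 13585 to 48912 in later tumors, and summed macrophage markers at 9277 to 17028 and 9934 to 16245. Summed skeletal muscle markers were at 44.3 to 8424 in earlier and 39.8 to 1208 in later tumors, and within RAG1-/- hosts they did separate the days (334 to 8424 on day 13 and 39.8 to 75.9 on day 23). Their part in the difference of Hmga2 was not tested.

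Igf2bp3 showed a smaller difference of the same sign. It was at 379, 384 and 437 normalized counts in wild-type tumors of day 23 and at 359, 500.2 and 739 on day 46. In RAG1-/- tumors it was at 358, 424 and 448 on day 13 and at 634, 462 and 653 on day 23. The later RAG1-/- tumors all lay above the earlier (1.42-fold, log2 difference 0.50, SE 0.23, limma adjusted p = 0.42), while the wild-type groups overlapped (1.33-fold, 0.35, SE 0.23, limma adjusted p = 0.688). Over both hosts the difference was 0.42 (SE 0.16, limma adjusted p = 0.337, exact permutation p = 0.0368, 8 genes looked at). The last 500 exonic bases of Igf2bp3 lie opposite to Malsu1, so that strand matters here too. Malsu1 stood at 639 to 1128 in all 16 libraries, and in the skin library with 639 Igf2bp3 had 0 reads.

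Lin28b, with 160 reads over the 12 tumors, was at 10.3, 9.38 and 1.58 normalized counts in wild-type tumors of day 23, 18.6, 6.71 and 22.6 on day 46, 4.28, 8.90 and 1.91 in RAG1-/- tumors of day 13 and 19.6, 48.9 and 7.51 on day 23. Later tumors had 120 reads in all and earlier tumors 40. The log2 difference over both hosts was 1.57 (SE 0.56, limma adjusted p = 0.304, exact permutation p = 0.0216), and the groups overlapped. Peg10 went the other way, by -1.27 (SE 0.56, limma adjusted p = 0.395, exact permutation p = 0.0628), with 39 reads in later and 93 in earlier tumors. Hmga1 differed by 0.41 (SE 0.41) and Igf2bp2 by 0.13 (SE 0.12), neither past the threshold.

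The counts within each host are given beside their background. Between day 46 and day 23 of wild-type hosts 0 of 8 genes and 0% of all genes were called by limma, 2 of 8 had an unadjusted p below 0.05 (8.55% of all genes), and 1 of 8 had groups that did not overlap (12.5% of all genes). DESeq2 and edgeR called none of the 8. Between day 23 and day 13 of RAG1-/- hosts 0 of 8 and 0% of all genes were called, 3 of 8 had an unadjusted p below 0.05 (11.7% of all genes) and 2 of 8 did not overlap (19.4% of all genes), and again neither tool called any of the 8.

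On day 23 both hosts were sampled, and Hmga2 was lower in wild-type than in RAG1-/- tumors. Its wild-type mean was 0.539 of the RAG1-/- mean (log2 difference -0.89, SE 0.22, limma adjusted p = 0.108), and the highest wild-type tumor (1996) lay below the lowest RAG1-/- tumor (2440.0). DESeq2 called it (adjusted p = 0.0163) and the adjusted p ran up to 0.408 over the 17 alternatives. Igf2bp3 also did not overlap (0.687 of the RAG1-/- mean, log2 difference -0.53, SE 0.23, limma adjusted p = 0.414). For both genes the exact permutation p was 0.1. Of all genes 0.278% were called by limma, 11.2% had an unadjusted p below 0.05 and 16.1% had groups that did not overlap, against 0, 3 and 2 of the 8. edgeR called none of the 8. Peg10, the other gene with an unadjusted p below 0.05, was higher in wild-type tumors by 1.94 (SE 0.80, limma adjusted p = 0.38) on 55 reads against 11, and its groups overlapped.

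Igf2bp2 had the lowest p of the 8 genes between hosts over both time points, though the differences of Igf2 (-0.84), Peg10 (0.67) and H19 (-0.63) were larger with wider errors on the log2 scale. Wild-type tumors averaged 1039.7 ± 204 normalized counts and RAG1-/- tumors 739 ± 63.3 (SD, n = 6 each), and 5 of 6 wild-type tumors lay above all 6 RAG1-/- tumors. The difference was 0.47 on the log2 scale (SE 0.12, limma adjusted p = 0.102, exact permutation p = 0.00866). It passed in 2 of 22 alternatives, DESeq2 (adjusted p = 0.0217) and the omission of the second wild-type tumor of day 23, the lowest of its host at 728 (adjusted p = 0.0477), and the highest adjusted p was 0.253. Of all genes 0.712% were called by limma and 0.983% had groups that did not overlap, against 0 and 0 of the 8. 1 of the 8 had an unadjusted p below 0.05 (11.4% of all genes), and edgeR called none. The days of the hosts differ in this comparison (23 and 46 against 13 and 23). T cell markers and Igkc, which separate the hosts by design, moved with it, and their part was not tested.

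**Figure D4:**
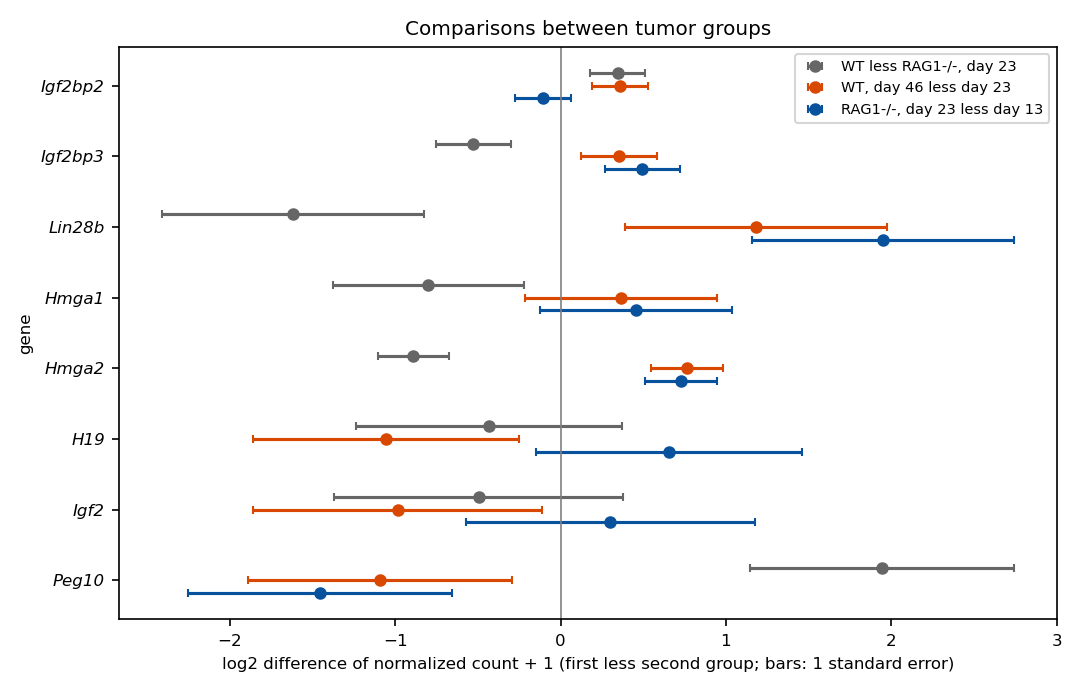
Points are log2 differences of normalized count plus 1 for the 8 genes that could be tested in 3 comparisons between tumor groups of 3 tumors each, and bars are 1 standard error. The 2 time differences of Hmga2 (0.76 and 0.73) lie side by side, and those of H19 and Igf2 have opposite signs in the hosts with wide bars.

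H19 and Igf2 varied more between tumors of 1 group than between groups. In the RAG1-/- group of day 23 H19 ran from 1718 to 17161, and in wild-type tumors of day 46 from 693 to 6178. No comparison between tumors called either gene, and its sign turned with a single tumor: without the third RAG1-/- tumor of day 23 the day 23 difference between wild-type and RAG1-/- moved from -0.43 to 0.58 for H19 and from -0.49 to 0.73 for Igf2. Between day 23 and day 13 of RAG1-/- hosts it moved from 0.65 to -0.36 for H19 and from 0.30 to -0.93 for Igf2. That tumor was the most deeply sequenced library (26134241 reads) and had 38837 reads of H19 and 908 of Igf2. Its summed fibroblast markers (34205) and skeletal muscle markers (39.8) were within the range of the other tumors or at its low end.

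Across the 12 tumors 5 relations were computed on the log2 scale. H19 and Igf2 rose together (Pearson r = 0.81, permutation p = 0.00214, adjusted 0.0107, and Spearman rho = 0.66, permutation p = 0.0236, adjusted 0.059). Without the 2 tumors farthest from the median of H19 r was 0.46 (permutation p = 0.187). That omission also narrows the range of H19, so it does not decide how far the relation rests on those tumors. The r of H19 and Igf2 was 0.68 within wild-type and 0.91 within RAG1-/- tumors, and 0.77 with each tumor set against its own group mean. Hmga2 and Igf2bp3 gave r = 0.73 (permutation p = 0.00731, adjusted 0.0183) and rho = 0.69 (permutation p = 0.0147, adjusted 0.059), and r = 0.65 without the 2 tumors farthest from the median of Hmga2 (permutation p = 0.0451). Their r was 0.65 and 0.81 within the hosts and 0.46 with each tumor set against its own group mean. The permutations ignored the groups, so these p also take in differences between groups, such as those of later and earlier tumors. No p was computed for an r with each tumor set against its own group mean.

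H19 was set beside only 2 sums of host cell markers, and not beside those of macrophages, endothelium or pericytes. Its r was 0.07 with summed fibroblast markers (rho = 0.15) and 0.04 with summed skeletal muscle markers (rho = 0.11), with adjusted permutation p of 0.891 for both r and 0.914 for both rho. Without the 2 tumors farthest from the median of H19 these r were -0.09 and 0.21, and within wild-type and RAG1-/- tumors they were -0.34 and 0.52 for fibroblast and 0.44 and -0.25 for muscle markers. Hmga2 and fibroblast markers gave r = -0.19 and rho = -0.01 over all tumors (adjusted permutation p = 0.891 and 0.991), 0.25 without the 2 farthest tumors, 0.12 and -0.39 within the hosts, and -0.86 with each tumor set against its own group mean.

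**Figure D5:**
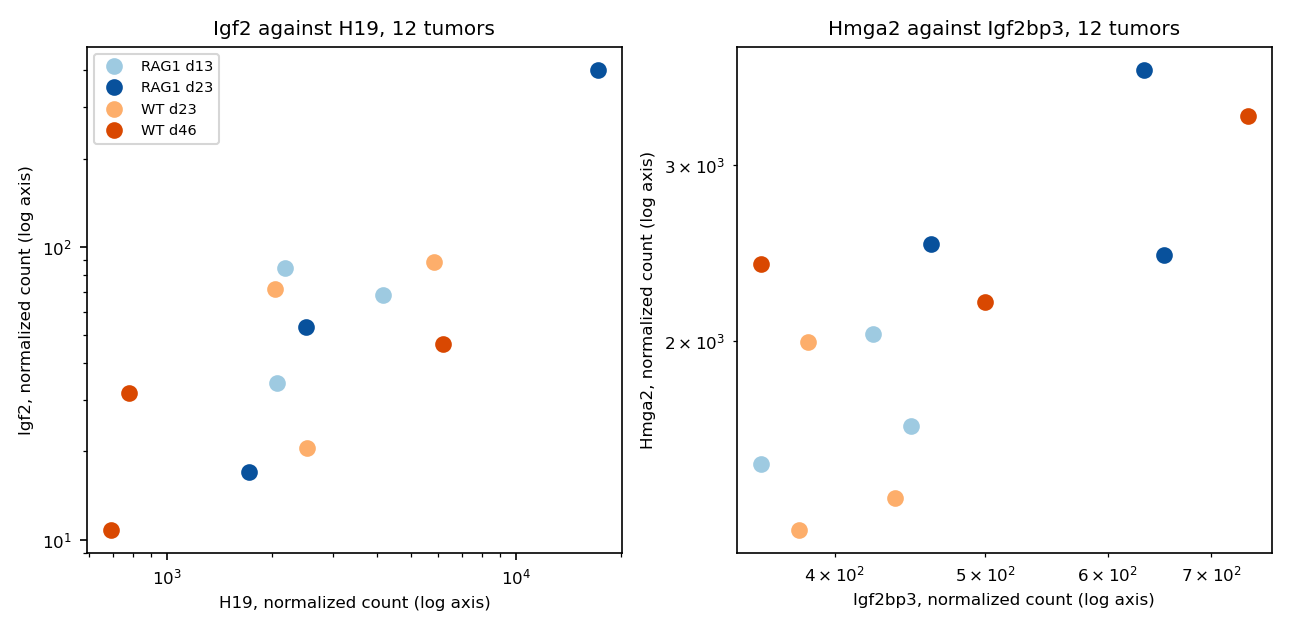
Each point is 1 of 12 tumors, colored by group, with normalized counts on log axes. The left panel shows Igf2 against H19, with 1 RAG1-/- tumor of day 23 alone at the upper right (17161 and 401), and the right panel shows Hmga2 against Igf2bp3, with the later tumors in the upper part.

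The genes whose pattern over the 16 libraries was most like that of a gene of the set were then sought. The measure was the root mean square difference of centred log2 values, a description over 16157 genes. The 16 libraries include the MC38 and skin values that chose the set, so sharing that contrast brings a gene near Igf2bp3. Nearest to Igf2bp3 were Tbx20 (0.44) and Rhox5 (0.47), which encode transcription factors, and Hmga2 was 24th (0.74). Nearest to Hmga2 were G730013B05Rik (0.49), Hoxc10 (0.59) and Dusp9 (0.64), and Igf2bp3 was 10th. The second skin library held these genes too, such as Rhox5 at 1154 against 9.38 in the first, beside 7338 and 7463 in MC38 cells. Among these 5 neighbours the difference between later and earlier tumors ran from -0.15 for Rhox5 to 0.34 for G730013B05Rik on the log2 scale, beside 0.75 for Hmga2. No gene came close to H19: the nearest, Cyth4, Sla and Neurl3, were 1.01 away each, and Igf2 was 32nd (1.13). Cyth4 and Sla are known as genes of blood cells. Cyth4 stood at 0 to 2.93 normalized counts in MC38 cells and 209 to 627 in tumors, and Sla at 0 to 0.978 and 147 to 400.1.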

How the data were processed

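RNA of mouse tumors, MC38 cells and skin was made into 3′ QuantSeq libraries and sequenced on an Ion Proton. Per the labels and the study's methods, the authors trimmed reads with cutadapt and Trimmomatic, aligned them with STAR and then Bowtie2 to mm10, counted genes with HTSeq and deposited counts divided by DESeq2 size factors, a normalized signal per gene. Versions, annotation and strand setting are not given in the sources used here. In all 16 libraries 100% of values were whole multiples of 1 read (tolerance 0.001), so reads were recovered. A second table, with 6 columns whose names match no label, was not used.

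Differences were tested with limma 3.58.1 (R 4.3.3, mean-variance trend) on log2(normalized count + 1) over genes with a mean of at least 5, with Benjamini-Hochberg adjustment over all genes and a two-sided threshold of 0.05. "Called" means past it. The 12 tumors formed 1 fit of 4 groups, and the 2 MC38 libraries were added for comparisons with them. A fold is a ratio of group means, and a log2 difference understates the change of low genes. Counting intervals are 95% and exact, and they and the floor of 3 reads cover counting error only. Depth was 5589151 to 26134241 reads. Single genes were also tested by exact permutation of the samples (scipy 1.17.1), and relations over tumors with 100000 permutations. edgeR 4.0.16 and DESeq2 1.42.0 on the recovered reads, other pseudocounts, filters and scalings, and each library left out were alternatives. The scripts were tested on simulated data.

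The 10 genes, the gene lists and the rule for named genes (all 10, up to 5 called genes of each list, and the 3 genes most like Igf2bp3, Hmga2 and H19) were set with earlier results of these data known. 1 gene that the rule names is not reported here. The labels do not tie MC38 or skin libraries to separate cultures or animals, so their spread may be technical. Gene models came from GENCODE M21, let-7 sequences from RefSeq.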

Additional observations from a re-analysis of the deposited data

Results flagged for a closer look

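Among 36 sets of 6 tumors (9 genes, in the 2 hosts and in the earlier and later tumors, which regroup the same 12 tumors) Dixon's test marked 7 for 1 tumor far from the rest. The ratios were taken on normalized counts and not on logs, and a chance rate of about 1 in 20 holds for normally distributed values. Counts that are skewed or rest on few reads can be marked more often, so 7 of 36 is not shown to be an excess. H19 at 17161 normalized counts and Igf2 at 401 in the third RAG1-/- tumor of day 23 stood apart both among RAG1-/- tumors and among later tumors, which makes 4 of the 7. Igf2bp3 stood apart at 739 in the third wild-type tumor of day 46 among wild-type tumors (ratio 0.628 against a critical value of 0.625). Peg10 stood apart at 25.7 in the first RAG1-/- tumor of day 13 among RAG1-/- tumors, and Igf2bp1 at 10.01 (9 reads) in the second RAG1-/- tumor of day 13 among earlier tumors.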

How the results depend on the processing

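Of 1202 recomputed log2 differences of the 10 genes, 1171 kept their direction or stayed uncalled within 1 SE and their side of the threshold, 21 lost a call, 4 gained one and 6 uncalled values changed sign by more than their SE: H19 and Igf2 without the third RAG1-/- tumor of day 23, and H19 between later and earlier tumors (-0.20, but 0.45 with DESeq2 and edgeR). DESeq2 called 1 of the genes where limma called 0 on day 23 between hosts (Hmga2), between hosts over both days (Igf2bp2) and between later and earlier tumors (Hmga2), and the cause was not tested. For wild-type tumors against MC38 the 5 calls became 3 without a filter, by the adjustment over more genes, and 3 with a mean of at least 20, which drops low genes. Leaving out single libraries gave 2 to 5 calls there, 2 to 3 for RAG1-/- tumors against MC38, 0 to 1 between hosts over both days and 0 elsewhere. An arm of 1 MC38 library was assumed to vary like the other groups. Over all genes the 41 calls between hosts on day 23 became 22 without a filter, 15 without the trend, 22 with edgeR and 239 with DESeq2, and the 105 between hosts over both days became 48 without the trend, 111 with edgeR and 285 with DESeq2. Where limma called 0, DESeq2 called 43 (wild-type, day 46 against 23), 206 (RAG1-/-, day 23 against 13; 23 with these groups alone in the fit), 153 (later against earlier) and 58 (difference of the time change). Upper quartile scaling moved the share of higher calls against MC38 from 65.5% to 50.3% in wild-type and from 67.6% to 55.3% in RAG1-/- tumors. It moved the all-gene median from 0.05 to -0.10 and from 0.06 to -0.05, and scaling to the same total moved it from -0.01 to -0.13 between RAG1-/- tumors of day 23 and 13 and from 0.02 to 0.16 for the difference of the time change. Leaving out single libraries gave 5 to 60, 65 to 171, 0 to 7, 0 to 37, 0 to 55 and 0 to 5 all-gene calls in these 6 tumor comparisons, in the order given, and 2172 to 4396 and 1832 to 3569 against MC38. Same-numbered tumors are different mice, and their deviations correlated by -0.24 to 0.25 (median 0.01) over 18 pairs, so the numbers do not pair them. With a replicate block 0 of the 8 genes were called in each tumor comparison, and 39 of all genes on day 23. The let-7 count of 7 genes was 6 for the site of 8 bases. Of the 3 nearest genes 1 stayed for Igf2bp3, 2 for Hmga2 and 0 for H19 with a pseudocount of 5.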
